A study of Mus musculus with 16 samples.

Results

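Intergenic DNA near genes was examined for 5-hydroxymethylcytosine (5hmC) in mouse CD4 T cells. The regions described are those of the deposited union of pull-down peaks that overlap no transcript, carry no promoter annotation and lie at most 50000 bp from the nearest transcription start site (TSS). This rule uses annotation alone and no read count. It took 39424 of the 177720 regions (22.2%), covering 43.6 of 259 Mb. They are called near-TSS intergenic regions here, and the 19405 intergenic regions beyond 50000 bp are called far intergenic.

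All cells came from the spleen and lymph nodes of C57BL/6 mice aged 5 to 6 weeks that carry a Foxp3-eGFP reporter, and each of the 4 groups had 2 pull-down and 2 input libraries. Naive cells were sorted as CD4+ cells without eGFP or CD25, high for CD62L and low for CD44, and regulatory T cells (Treg) were sorted as CD4+ cells with eGFP. Induced Treg (iTreg) were made from naive CD4+ cells in culture, either with TGFβ (TGFβ iTreg) or with TGFβ, retinoic acid and vitamin C (RA+VitC iTreg). Retinoic acid and vitamin C were always given together, and no group was cultured without TGFβ, so the effects of culture and TGFβ, or of the pair of additives, cannot be told apart. The labels do not say whether iTreg were sorted for eGFP after culture, nor whether replicates were separate mice or cultures, so a p-value here measures spread among these libraries alone, and that spread may be technical.

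5hmC is made from 5-methylcytosine by the TET dioxygenases and is an intermediate of active DNA demethylation. It is enriched over gene bodies of expressed genes and over enhancers, many of which lie in intergenic DNA at some distance from the gene they act on. Vitamin C supports the catalytic activity of TET proteins, and retinoic acid acts through nuclear receptors that bind DNA. In the CMS-IP assay, bisulfite treatment converts 5hmC to cytosine-5-methylenesulfonate, and fragments that carry it are precipitated with an antiserum. The count of reads in a region is therefore a relative measure of 5hmC within a library. It gives no total, and it says nothing of the expression of the nearest gene.

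The regions lie on genome build mm9, of which no sequence was used here, so their own bases are not printed. Sequences of genes that the results below turn on are given in their place, from RefSeq on GRCm38.p6. The first set holds mature microRNAs whose genes are the nearest TSS of regions with large differences. MicroRNAs are short RNAs that repress messenger RNAs by pairing through the seed, bases 2 to 8, which stands in capitals.
mmu-miR-29b-3p: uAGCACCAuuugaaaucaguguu
mmu-miR-29a-3p: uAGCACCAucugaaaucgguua
mmu-miR-17-5p: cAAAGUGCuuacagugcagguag
mmu-miR-155-5p: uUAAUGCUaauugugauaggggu
mmu-miR-146a-5p: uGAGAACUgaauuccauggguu
mmu-miR-101b-3p: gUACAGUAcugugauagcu
mmu-miR-181c-5p: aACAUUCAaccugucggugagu
mmu-miR-1932: gUUGCGGAcagcgcuaggucgg
miR-29b and miR-29a share the seed AGCACCA, and the other microRNAs shown have a seed of their own.

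The second set holds the promoters of Itgav and Il2ra, each with an upstream region whose reads rose in both kinds of iTreg. CpG dinucleotides, where most 5-methylcytosine and 5hmC lie, stand in capitals.
Itgav, chr2:83724147-83724446, plus strand: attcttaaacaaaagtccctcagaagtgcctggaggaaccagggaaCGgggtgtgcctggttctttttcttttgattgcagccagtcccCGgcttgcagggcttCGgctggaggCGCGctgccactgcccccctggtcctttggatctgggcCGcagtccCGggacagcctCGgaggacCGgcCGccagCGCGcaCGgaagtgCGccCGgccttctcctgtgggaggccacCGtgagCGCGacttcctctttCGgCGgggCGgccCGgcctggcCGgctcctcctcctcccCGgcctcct
Il2ra, chr2:11642542-11642841, plus strand: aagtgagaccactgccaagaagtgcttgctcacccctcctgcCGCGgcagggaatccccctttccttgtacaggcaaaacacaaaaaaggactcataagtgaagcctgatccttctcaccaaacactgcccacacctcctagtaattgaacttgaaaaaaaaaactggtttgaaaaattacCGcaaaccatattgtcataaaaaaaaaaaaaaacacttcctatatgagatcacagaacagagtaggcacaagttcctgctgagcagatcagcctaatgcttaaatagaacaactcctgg
The Itgav promoter holds 24 CpG, a number that 20.0% of the 32851 promoters in the table reach, and the Il2ra promoter holds 3, a number that 31.4% do not exceed. The median was 7 CpG over all promoters in the table, each counted once. Over the 18598 tested regions whose nearest TSS symbol matched a promoter, of 24120 with a symbol, the median was 20 CpG. This median is over regions, so a gene with many regions counts many times, and it is not comparable with the median over promoters. Regions called higher in RA+VitC iTreg than in naive cells stood next to promoters with a median of 18.5 CpG, and regions called lower next to promoters with a median of 20.0.

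The near-TSS intergenic regions measured 630 bp at the median (range 175 to 54799 bp), with a median distance of 16258 bp from the nearest TSS. Of these regions, 21962 (55.7%) lay upstream of that TSS and 12110 (30.7%) past the end of its gene. The other 5352 (13.6%) were past the end of their nearest transcript but closest to the start of another gene. The nearest TSS is used below to name a region, and the nearest transcript is added where it differs. Counting by TSS, 8959 symbols had at least 1 region, with a median of 2 and a maximum of 25 per symbol, and 6160 regions had no symbol. Neighbouring regions of 1 gene can belong to 1 modified stretch of DNA and are not independent.

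Reads in regions numbered 7664194 to 9731897 per pull-down library of the sorted cells, 3828487 and 3996442 for RA+VitC iTreg, and 1648804 and 2114056 in TGFβ iTreg. Inputs held 1028822 to 1563165. One read was worth 0.103 to 0.13 CPM (counts per 1e6 reads) in the sorted cells and up to 0.607 in TGFβ iTreg, so differences that involve TGFβ iTreg are the least precise. Of the near-TSS intergenic regions, 28661 (72.7%) had enough reads to be tested. The 10763 left out were narrower, with a median width of 223 bp against 901 bp. Of the marker genes of other cell types described here, Cd79a, Pax5, Csf1r and Lyz2 had no near-TSS intergenic region, and the 2 regions of Ms4a1, a B cell surface protein, summed to 0.574 to 2.78 CPM. The 4 regions of Itgam, a myeloid integrin gene, summed to 24.6 to 30.2 CPM over the groups. Regions of the CD8 and NK cell markers summed to 40.2 CPM in naive cells, 29.2 in Treg, 21.9 in TGFβ iTreg and 21.0 for RA+VitC iTreg, with Cd8b1 the largest (25.7, 19.5, 10.3 and 11.7). Prf1 was also highest in naive cells (7.51, 3.91, 3.08 and 3.27). Klrd1 was highest in TGFβ iTreg (3.04, 1.46, 4.8 and 3.15) and Cd8a in Treg (4.0, 4.32, 3.74 and 2.85). The part of such cells in the results below was not tested. Foxp3 had no near-TSS intergenic region. Of the other Treg markers, Ikzf2 held 36.5 CPM in naive cells, 105 in Treg, 64.2 in TGFβ iTreg and 59.1 for RA+VitC iTreg. Ctla4 held 109, 187, 346 and 422 CPM in the same order and Il2ra 29.5, 59.3, 205 and 167, so Ikzf2 was highest in Treg and the other two in iTreg.

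Near-TSS intergenic regions took a larger share of the 5hmC pull-down in TGFβ iTreg than in the other groups. The share was 15.1% in both naive libraries, 15.6% and 15.4% in Treg, 17.8% and 17.7% in TGFβ iTreg, and 16.3% in both RA+VitC iTreg libraries. No 2 groups overlapped, and the exact permutation test over the 4 groups gave p = 0.00952, the smallest it can give (2520 labelings). Between 2 groups of 2 libraries, no exact test can go below 0.333. In the inputs the share was 16.9% to 17.1% in all 8 libraries (exact permutation p = 0.305), close to the 16.8% of bases that these regions cover. The pull-down thus stood above its input share in TGFβ iTreg and below it in the other 3 groups. Far intergenic regions also had their highest share in TGFβ iTreg, at 8.64% ± 0.044 (SD, n = 2) against 7.66% ± 0.032 in naive cells, 7.58% ± 0.17 in Treg and 7.65% ± 0.067 for RA+VitC iTreg (exact permutation p = 0.143 over the 4 groups). The higher share in TGFβ iTreg was thus seen in both classes of intergenic regions.

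Pull-down libraries held 1.49 and 1.72 times the reads of their inputs for TGFβ iTreg, 3.14 and 3.88 times for RA+VitC iTreg, and 4.9 to 6.39 times for sorted cells. This ratio varied with the group. It was lowest in TGFβ iTreg, whose share was highest, and its part in the share was not tested. Promoter regions held 16.4% ± 0.057 (SD, n = 2) of pull-down reads in naive cells, 16.2% ± 0.19 in Treg, 15.1% ± 0.29 in TGFβ iTreg and 16.2% ± 0.082 for RA+VitC iTreg. Their share was thus lowest where that of near-TSS intergenic regions was highest.

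**Figure D1:**
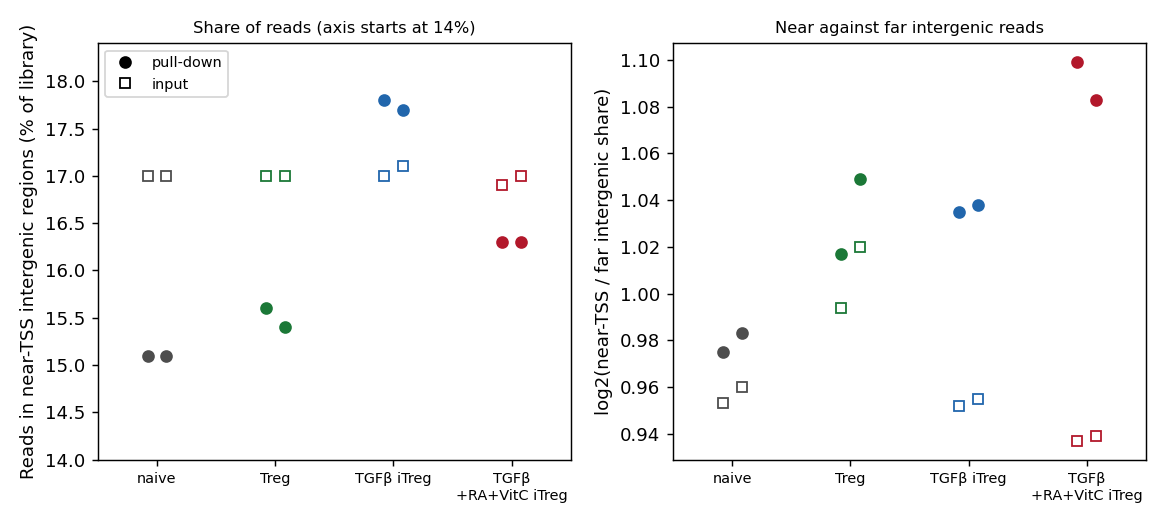
Share of reads in near-TSS intergenic regions (left, percent of reads in all regions, axis from 14%) and log2 ratio of the near-TSS to the far intergenic share (right). Filled circles are the 8 pull-down libraries and open squares the 8 inputs; TGFβ iTreg pull-downs lie at 17.8% and 17.7%, above every input, and RA+VitC iTreg pull-downs have the highest near-to-far ratios.

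Against far intergenic regions, reads near a TSS weighed most in RA+VitC iTreg. The log2 ratio of the near-TSS to the far intergenic share was 0.975 and 0.983 in naive cells, 1.017 and 1.049 in Treg, 1.035 and 1.038 in TGFβ iTreg, and 1.099 and 1.083 for RA+VitC iTreg (exact permutation p = 0.0286 over the 4 groups). Naive cells were lowest and RA+VitC iTreg highest, and Treg and TGFβ iTreg overlapped. The inputs gave 0.953 and 0.96, 0.994 and 1.02, 0.952 and 0.955, and 0.937 and 0.939 in the same order of groups. In the inputs Treg stood highest and RA+VitC iTreg lowest.

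Distance from the TSS made little difference to read density. In regions within 5 kb of a TSS the density was 3.33 CPM per kb in naive cells, 3.4 in Treg, 3.95 in TGFβ iTreg and 4.12 for RA+VitC iTreg. At 40 to 50 kb it was 3.37, 3.41, 4.11 and 4.21. In each group both values differed by less than 0.2, and the order of the groups depends in part on the scaling between libraries.

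Among tested regions, 14468 (50.5%) differed among the 4 groups in edgeR's quasi-likelihood test at an adjusted p under 0.05, against 48.3% of all tested regions of the table. Of those that differed, 34.4% had their highest mean in RA+VitC iTreg, 25.3% in naive cells, 22.9% in TGFβ iTreg and 17.3% in Treg, on the TMM scale. Over all tested regions that differed the shares were 33.9%, 28.6%, 18.2% and 19.4%, so the share of RA+VitC iTreg was near that of all regions. The lowest mean was in naive cells for 41.8%. No pair of groups differed for 12365 regions (43.1%). In the inputs, at most 1 of 7580 tested near-TSS intergenic regions was called in any comparison, and 4.64% to 5.22% had an unadjusted p under 0.05.

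**Figure D2:**
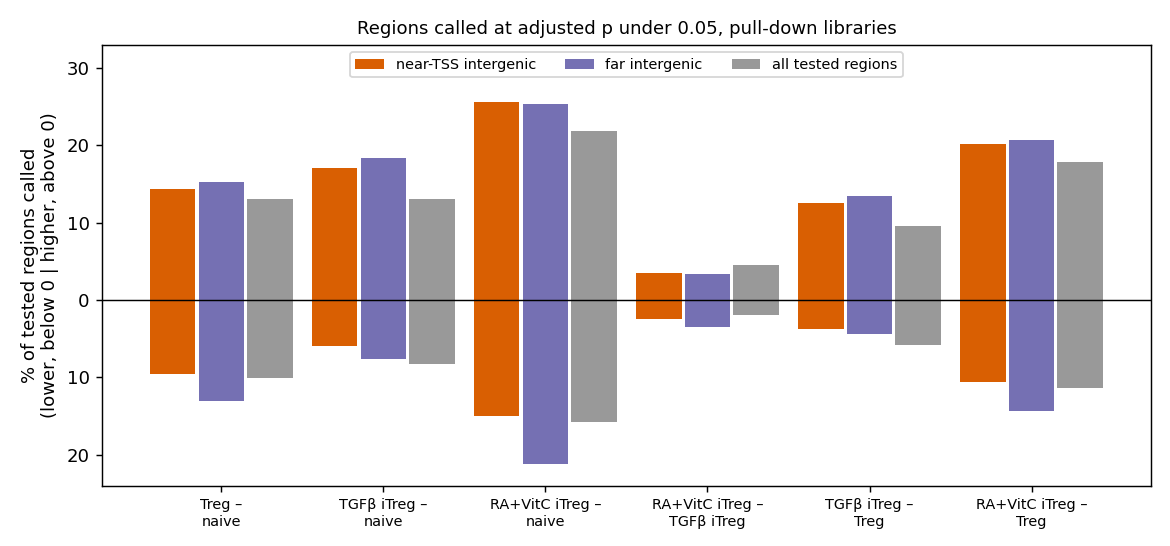
Percent of tested regions called higher (above 0) or lower (below 0) at an edgeR adjusted p under 0.05 in the 6 comparisons of pull-down groups, for near-TSS intergenic, far intergenic and all tested regions. Bars above 0 exceed those below in near-TSS intergenic regions in every comparison at this scaling; with plain library sizes 3 of the 6 turn.

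Treg and naive cells, both taken directly from mice, were compared first. Of the tested near-TSS intergenic regions, 4134 (14.4%) were higher in Treg and 2738 (9.55%) lower, against 13.0% and 10.1% of all tested regions. Both shares are near the background. With DESeq2 in place of edgeR the counts fell to 1365 and 399, and 5212 regions had no adjusted p there. Without naive replicate 2 they were 2523 and 1382. Falls numbered 1611 without naive replicate 1, and 1750 and 1652 without Treg replicates 1 and 2.

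Genes of the Treg signature list carried many rises. Of its 137 tested regions at 23 genes, 87 were higher in Treg and 2 lower, with a median log2 fold change of 1.13 against 0.011 over the near-TSS intergenic regions. The rises made up 63.5% of the list's tested regions. DESeq2 called 51 of them higher, and with libraries thinned to the depth of the shallowest 29 of 76 were. Ikzf2 encodes Helios, a transcription factor of thymus-derived Treg, and all 12 of its tested regions were higher in Treg. Rgs1, which dampens chemokine receptor signals, followed with 16 of 18. Il10, the anti-inflammatory cytokine gene, had 11 of 16.

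The region 7054 bp upstream of Ikzf2 (chr1:69739589-69742359) held 1.85 and 2.38 CPM in naive cells, 16.3 and 16.5 in Treg, 5.17 and 7.24 in TGFβ iTreg, and 4.8 and 7.49 for RA+VitC iTreg. Treg were highest, naive cells lowest, and both kinds of iTreg overlapped in between. The log2 fold change of Treg over naive cells was 2.92 ± 0.21 (SE, adjusted p = 5.7e-40).

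Plagl1, a zinc finger gene of the Treg list, had a region 14865 bp upstream (chr10:12763983-12765444) with 2.35 and 0.892 CPM in naive cells, 13.2 and 12.8 in Treg, 14.3 and 14.5 in TGFβ iTreg and 8.76 and 14.7 for RA+VitC iTreg. Naive libraries were below all the others, and Treg exceeded naive cells by 3.05 ± 0.24 log2 units (adjusted p = 5.8e-34). At the Il10 region 18913 bp upstream (chr1:132895001-132897508), naive libraries held 1.98 CPM each, Treg 12.2 and 12.8, TGFβ iTreg 18.9 and 18.8 and RA+VitC iTreg 15.5 and 17.3. Naive cells were again lowest, by 2.64 ± 0.23 log2 units against Treg (adjusted p = 3.8e-28).

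Among all near-TSS intergenic regions with at least 100 reads on average, the largest rises in Treg were at Ppp4r2, Agr3, Ccr6, Rabgap1l and Hspa13, with log2 fold changes of 1.96 to 2.75. Ccr6 encodes a chemokine receptor of Th17 cells and of some Treg, and its region lay 22215 bp upstream, past the end of Fgfr1op (chr17:8400707-8406692). It held 4.45 and 3.47 CPM in naive cells, 21.9 and 20.4 in Treg, 18.9 and 21.2 in TGFβ iTreg and 30.5 and 33.1 for RA+VitC iTreg. Naive libraries lay below all others and below the inputs, which ranged from 13.8 to 29.8 CPM. The Treg difference was 2.43 ± 0.17 log2 units (adjusted p = 9.3e-41), and 5 of the 7 tested regions within the Ccr6 transcript were also higher in Treg.

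Hspa13, which encodes a heat shock protein 70 family member, differed in pattern. Its region 14023 bp upstream (chr16:75781087-75785667) held 21.4 and 19.4 CPM in Treg, 5.93 and 4.66 in naive cells, 14.3 and 8.21 in TGFβ iTreg and 6.78 and 8.64 for RA+VitC iTreg. Treg were highest and naive cells lowest there, a difference of 1.96 ± 0.17 log2 units (adjusted p = 1.4e-29). Inputs ranged from 15.4 to 25.3 CPM, so the Treg pull-downs lay within that range and the others below it.

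The largest falls were at Camk1g, Neurl1b, Cnpy1, Olfr524 and Setd4 (log2 fold changes of -1.69 to -1.38). Setd4, a gene of the SET domain family of methyltransferases, had a region 49552 bp from its TSS (chr16:93541609-93554507), just inside the distance limit. It held 76.8 and 76.0 CPM in naive cells, 30.2 and 28.7 in Treg, 32.7 and 43.4 in TGFβ iTreg and 34.2 and 38.3 for RA+VitC iTreg. Both naive libraries lay above every other library, and Treg were lowest, by 1.38 log2 units (SE 0.09, adjusted p = 1.2e-44). At Olfr524, an olfactory receptor gene, the region 2854 bp from the TSS (chr7:147377803-147385812) fell to 12.8 and 15.1 CPM in Treg from 39.8 and 39.2 in naive cells, while TGFβ iTreg held 70 and 83 and RA+VitC iTreg 44.9 and 42.6. Treg were lowest and TGFβ iTreg highest, with a Treg difference of -1.49 ± 0.12 log2 units (adjusted p = 9.3e-33).

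Il21, the cytokine of follicular helper and Th17 cells, had 9 of 17 tested regions lower in Treg and 0 higher. The region 19613 bp from its TSS (chr3:37104790-37111926) held 46.1 and 50.3 CPM in naive cells, 24.1 and 26.5 in Treg, 19.5 and 24.6 in TGFβ iTreg and 17.2 and 12.7 for RA+VitC iTreg. Naive cells were highest, with a Treg difference of -0.93 ± 0.10 log2 units (adjusted p = 2e-17). Il7r, the interleukin 7 receptor that sustains naive T cells, had 7 of 16 tested regions lower and 0 higher, and Lef1, a transcription factor of naive T cells, 5 of 9 lower. The naive T cell list as a whole had 12 regions higher (7.79%) and 37 lower (24.0%) of 154 in Treg. The shares of all near-TSS intergenic regions were 14.4% and 9.55%. DESeq2 called 7 regions of the list higher and 10 lower. With all libraries thinned to the depth of the shallowest, 5 were higher and 4 lower of 99.

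Between TGFβ iTreg and naive cells, the cells they were made from, rises outnumbered falls. Of the near-TSS intergenic regions 4871 (17.0%) were higher in TGFβ iTreg and 1711 (5.97%) lower, against 13.1% and 8.22% of all tested regions. Far intergenic regions gave 18.3% and 7.62%, and promoter regions 10.1% and 11.4%. The median log2 fold change was 0.084 here and -0.031 over all tested regions. Without TGFβ iTreg replicate 2 the counts were 2997 and 841, and without replicate 1 the count of falls was 860.

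The 5 largest rises were at Stfa3, Tlr5, Emsy, Prnp and Rps21. Stfa3 encodes a stefin, an inhibitor of cysteine proteases, and its region 15168 bp upstream (chr16:36470647-36477882) held 3.83 and 4.85 CPM in naive cells, 14.2 and 14.9 in Treg, 122 and 130 in TGFβ iTreg and 92.1 and 79.8 for RA+VitC iTreg. Each group stood apart from the others. TGFβ iTreg exceeded naive cells by 4.84 ± 0.15 log2 units (adjusted p = 5.9e-213). Inputs ranged from 22.0 to 38.5 CPM, so the naive and Treg pull-downs lay below them.

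At Emsy, a gene of a chromatin-associated protein, the region 3020 bp past the TSS (chr7:105727090-105736247) held 15.8 and 16.6 CPM in naive cells, 47.4 and 40.2 in Treg, 232 and 230 in TGFβ iTreg and 200 and 163 for RA+VitC iTreg. The difference was 3.83 ± 0.11 log2 units (adjusted p = 1.3e-253). Only 2 of the 16 tested regions in the Emsy transcript were higher in TGFβ iTreg, and 0 were lower. Lrrc32 is the gene of GARP, which holds latent TGFβ on the surface of Treg. It lies near Emsy on the same chromosome, so regions of both genes may not be independent. Its region 4745 bp upstream, nearest to the transcript of Gucy2d (chr7:105629823-105637986), held 14.2 and 14.9 CPM in naive cells, 42.5 and 44.4 in Treg, 71.2 and 93.7 in TGFβ iTreg and 120 and 132 for RA+VitC iTreg. All 4 groups were separate, in that order, and TGFβ iTreg exceeded naive cells by 2.51 ± 0.14 log2 units (adjusted p = 3.9e-68).

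Il2ra encodes CD25, the interleukin 2 receptor alpha chain, whose absence was a criterion in sorting the naive cells. Its region 11574 bp upstream (chr2:11542131-11552844) held 19.0 and 18.9 CPM in naive cells, 52.7 and 45.8 in Treg, 164 and 174 in TGFβ iTreg and 131 and 134 for RA+VitC iTreg. All groups were separate, with TGFβ iTreg highest. TGFβ iTreg exceeded naive cells by 3.16 ± 0.11 log2 units (adjusted p = 4.5e-162).

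Ctla4, an inhibitory receptor of Treg, had all 9 tested regions above naive cells in TGFβ iTreg, and 6 of 9 higher in Treg. The region 18632 bp upstream (chr1:60940294-60947236) held 14.0 and 13.0 CPM in naive cells, 22.0 and 20.7 in Treg, 79.8 and 70.5 in TGFβ iTreg and 76.6 and 64.3 for RA+VitC iTreg. Both iTreg groups overlapped and lay far above the sorted cells, 2.48 ± 0.14 log2 units above naive cells for TGFβ iTreg (adjusted p = 1.2e-62). The Treg signature list had 77 of 137 regions higher (56.2%) and 0 lower in TGFβ iTreg than in naive cells (median log2 fold change 1.42), and the activation list 64 higher (29.1%) and 8 lower (3.64%) of 220, against 17.0% and 5.97% of all near-TSS intergenic regions. After thinning, 45 of 76 tested regions of the Treg list were higher and 2 lower.

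**Figure D3:**
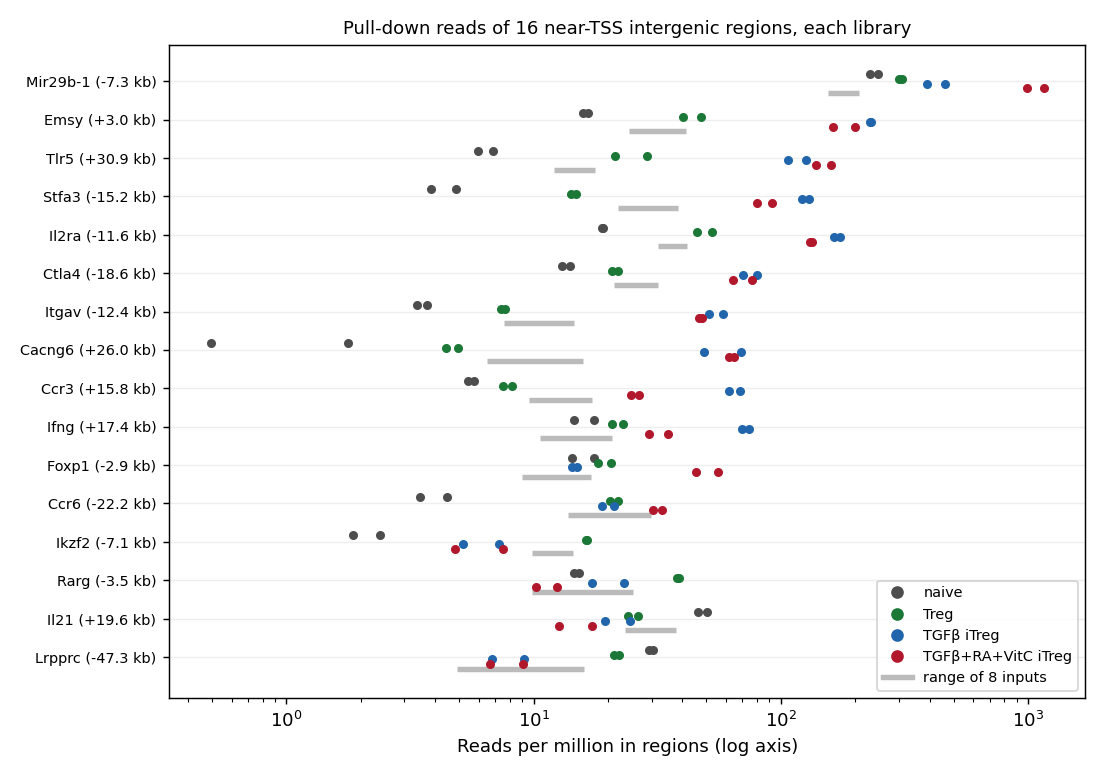
Pull-down CPM (log axis) of 16 near-TSS intergenic regions in each of the 8 libraries, coloured by group, with the distance from the TSS in kb beside the gene; grey bars span the 8 inputs, which have a scaling of their own. The regions were picked by hand from those named in the text for large rises or falls, so the orders shown follow in part from that choice. At most of them naive cells lie lowest and iTreg highest. The order is turned at Il21 and Lrpprc, and Ikzf2 and Rarg are highest in Treg.

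The TGFβ pathway list had 11 regions higher and 3 lower of 87 in TGFβ iTreg against naive cells (12.6% and 3.45%), no more than the background shares. Itgav carried the largest rise on it. It encodes integrin αV, a subunit of the integrins that release active TGFβ from its latent form. The region 12401 bp upstream of Itgav (chr2:83549233-83552152) held 3.71 and 3.37 CPM in naive cells, 7.64 and 7.4 in Treg, 58.5 and 51.2 in TGFβ iTreg and 48.0 and 46.7 for RA+VitC iTreg. Each group was separate. The rise over naive cells was 3.95 ± 0.20 log2 units in TGFβ iTreg (adjusted p = 1.8e-86), beside the promoter printed above.

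Falls in TGFβ iTreg were smaller than rises. The 5 largest, at Lrpprc, Ddr1, Lancl1, Maml2 and Mir1932, spanned log2 fold changes of -1.93 to -1.38. Lrpprc, a gene of mitochondrial RNA stability, had a region 47327 bp upstream (chr17:85237454-85240536) with 29.4 and 30.4 CPM in naive cells, 22.2 and 21.1 in Treg, 9.18 and 6.76 in TGFβ iTreg and 9.04 and 6.63 for RA+VitC iTreg. Both iTreg groups overlapped and lay below the sorted cells (-1.93 ± 0.24 log2 units, adjusted p = 1.3e-14). The Mir1932 region, 3162 bp from its start (chr11:119254949-119260219), held 39.8 and 36.7 CPM in naive cells, 27.0 and 27.9 in Treg, 13.2 and 15.9 in TGFβ iTreg and 9.89 and 14.4 for RA+VitC iTreg. It fell by 1.38 log2 units in TGFβ iTreg (SE 0.19, adjusted p = 2.2e-11).

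RA+VitC iTreg and naive cells differed at the most near-TSS intergenic regions of the 6 comparisons. In RA+VitC iTreg 7342 (25.6%) were higher and 4297 (15.0%) lower, against 21.9% and 15.8% of all tested regions. These counts depend on depth, which was lower in TGFβ iTreg, where 4871 were higher than in naive cells and 1711 lower. With libraries thinned to the shallowest, 2610 were higher and 1282 lower in RA+VitC iTreg, against 2538 and 777 in TGFβ iTreg. The balance depends on the scaling: with plain library sizes, which shift the median of all tested regions by -0.21 log2 units in this comparison, 6265 were higher and 6455 lower. Falls numbered 2566 without RA+VitC iTreg replicate 1 and 2727 without replicate 2. Regions wider than 3000 bp were called most often, with 40.5% higher and 25.1% lower, and wide regions also hold the most reads. Calls did not rise evenly with width. The narrowest tested regions, of 175 to 300 bp, had 32.6% higher and 5.67% lower. At 300 to 1000 bp the values were 19.9% and 12.1%, and at 1000 to 3000 bp 26.7% and 18.6%. What set the narrowest regions apart was not tested.

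The largest rises were at Cacng6, Popdc2, Zfp213, Ifitm3 and Gpbp1, with log2 fold changes of 4.78 to 5.68. Cacng6 encodes a subunit of voltage-gated calcium channels. Its region 26045 bp from the TSS (chr7:3451469-3454899) held 0.494 and 1.78 CPM in naive cells, 4.93 and 4.44 in Treg, 48.8 and 69.0 in TGFβ iTreg and 61.6 and 64.5 for RA+VitC iTreg. Both iTreg groups overlapped. RA+VitC iTreg exceeded naive cells by 5.68 ± 0.20 log2 units (adjusted p = 8.7e-174), and the inputs held 6.5 to 15.8 CPM.

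Gpbp1, a gene of a promoter-binding transcription factor, had a region 30372 bp upstream (chr13:112310622-112316295) with 3.96 and 4.66 CPM in naive cells, 12.1 and 10.1 in Treg, 79.2 and 84.5 in TGFβ iTreg and 128 and 112 for RA+VitC iTreg. The groups were separate in that order, with a rise of 4.78 ± 0.14 log2 units over naive cells (adjusted p = 2.9e-256). Here the transcript moved as well: 12 of its 18 tested regions were higher and 0 lower. Ifitm3, an interferon-induced antiviral gene, had a region 15776 bp from the TSS (chr7:148179048-148180866) that was highest in TGFβ iTreg, with 82.1 and 94.1 CPM against 55.4 and 58.8 for RA+VitC iTreg. Treg held 3.82 and 4.67 CPM and naive cells 2.72 and 1.49. RA+VitC iTreg exceeded naive cells there by 4.79 ± 0.19 log2 units (adjusted p = 1.6e-142).

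The widest near-TSS intergenic region of all, 54799 bp, lay upstream of the Mir29b-1 gene on chromosome 6 (chr6:31020440-31075238), 7346 bp from the start as the table gives it. The miR-29 family is known to repress DNA methyltransferases and TET enzymes. The region held 229 and 247 CPM in naive cells, 300 and 310 in Treg, 391 and 463 in TGFβ iTreg and 1160 and 987 for RA+VitC iTreg. The 4 groups were separate, and RA+VitC iTreg stood above TGFβ iTreg by 1.33 log2 units (adjusted p = 3.3e-60). Against naive cells the rise was 2.17 ± 0.07 log2 units (adjusted p = 1.5e-190). The inputs held 156 to 208 CPM, with group means of 172 to 195.

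On the other side of this microRNA cluster, the Mir29a region 2209 bp past the start (chr6:31004559-31010537) held 9.77 and 8.72 CPM in naive cells, 11.3 and 12.1 in Treg, 13.2 and 15.4 in TGFβ iTreg and 35.9 and 25.6 for RA+VitC iTreg. RA+VitC iTreg were again highest, by 1.74 ± 0.16 log2 units over naive cells (adjusted p = 2.3e-25). Both microRNAs carry the seed printed above.

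In all, 335 near-TSS intergenic regions had a microRNA gene as the nearest TSS and 252 were tested. Of these, 139 (55.2%) differed among the groups, against 50.5% of all tested near-TSS intergenic regions. Those that differed and also averaged 50 reads or more numbered 26 at 22 genes (10.3%, against 10.7%). Both shares are near those of near-TSS intergenic regions at large. A sequence was found for 21 of the 22 genes. The regions named here were chosen after their values were seen, apart from Mir1932, which the naming rule took. Mir17 begins the polycistron that promotes lymphocyte growth. Its region 3604 bp upstream (chr14:115436656-115439288) held 6.18 and 4.56 CPM in naive cells, 9.73 and 11.4 in Treg, 16.6 and 19.8 in TGFβ iTreg and 38.4 and 32.8 for RA+VitC iTreg. All groups were separate (2.75 ± 0.17 log2 units over naive cells, adjusted p = 1.9e-54).

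Mir155, needed for Treg fitness, had a region 10223 bp upstream (chr16:84700888-84703053) with 4.33 and 4.16 CPM in naive cells, 16.1 and 15.9 in Treg, 9.76 and 11.6 in TGFβ iTreg and 17.5 and 19.3 for RA+VitC iTreg. Mir146, the miR-146a gene that restrains NF-κB signalling in Treg, had a region 18346 bp upstream (chr11:43206310-43209798) with 7.42 and 7.83 CPM in naive cells, 22.4 and 21.6 in Treg, 19.5 and 23.7 in TGFβ iTreg and 20.3 and 17.6 for RA+VitC iTreg. Naive cells were lowest at both. At Mir101b, 11131 bp from its start and nearest to the transcript of Rcl1 (chr19:29220901-29225339), TGFβ iTreg stayed near naive cells, with 11.5 and 11.6 CPM against 8.53 and 9.12, and RA+VitC iTreg held 29.1 and 37.5. The order of both iTreg groups was turned at Mir181c, 13037 bp upstream (chr8:86715898-86718373), where TGFβ iTreg were highest with 25.3 and 30.9 CPM, RA+VitC iTreg held 19.5 and 21.6, Treg 15.3 and 15.8 and naive cells 8.65 and 8.22.

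The Treg signature list had 100 of 137 regions higher (73.0%) and 2 lower (1.46%) in RA+VitC iTreg than in naive cells, with a median log2 fold change of 1.58 against 0.019 over the near-TSS intergenic regions. After thinning, 49 of 76 were higher and 2 lower. Rgs1 had 17 of 18 tested regions higher, Ctla4 9 of 9, Gzmb (granzyme B, a protease of cytotoxic cells and Treg) 9 of 11 and Izumo1r (folate receptor 4, a surface marker of Treg) 9 of 10. In Treg against naive cells, 0 of the 10 Izumo1r regions were higher and 1 lower, and 3 of the 11 Gzmb regions were higher and 1 lower. Ikzf2 had 3 of 12 higher in RA+VitC iTreg than in naive cells. The next lists are read against the 25.6% of near-TSS intergenic regions called higher in this comparison and the 15.0% called lower. The activation list had 84 higher (38.2%) and 15 lower (6.82%) of 220. The Th2 list had 30 higher (47.6%) and 8 lower (12.7%) of 63, and the Th17 list 26 higher (37.7%) and 8 lower (11.6%) of 69. The Th1 list had 22 higher (38.6%) and 12 lower (21.1%) of 57. With plain library sizes falls numbered 25 on the activation list, 12 on the Th2 list and 14 on the Th17 list. Of the 12 tested Th17 regions with at least 50 reads on average, 4 were higher and 5 lower.

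Lists of other cell types were small. The B cell list had 0 regions higher and 6 lower of 17 in RA+VitC iTreg than in naive cells, 4 of them at Ebf1, a transcription factor that starts the B cell programme, and the CD8 and NK list had 6 higher and 7 lower of 22. The myeloid list had 1 higher and 0 lower of 14, and with plain library sizes 1 higher and 2 lower. The T cell identity list had 12 higher (20.0%) and 8 lower (13.3%) of 60, both below the shares of all near-TSS intergenic regions, and with plain library sizes 9 higher and 14 lower. What these regions of other cell types contribute to the results was not tested.

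The retinoic acid list had 10 regions higher and 2 lower of 35 in RA+VitC iTreg than in naive cells (28.6% and 5.71%). The share of rises is near the 25.6% of all near-TSS intergenic regions. With plain library sizes 9 were higher and 6 lower. Cyp26b1, which encodes an enzyme that breaks down retinoic acid, had 3 of 4 tested regions higher in RA+VitC iTreg than in naive cells and 0 of 4 in TGFβ iTreg. Between both iTreg groups 2 of the 4 were higher with the additives, with a median log2 fold change of 1.74 over the 4. Tgm2, a transglutaminase gene induced by retinoic acid in many cells, had all 3 tested regions higher. The region 12152 bp upstream of Tgm2 (chr2:157984281-157995694) held 39.2 and 39.0 CPM in naive cells, 49.0 and 45.1 in Treg, 67.7 and 77.2 in TGFβ iTreg and 83.3 and 78.1 for RA+VitC iTreg. Its rise over naive cells was 1.05 ± 0.10 log2 units (adjusted p = 3.1e-22), and TGFβ iTreg, without retinoic acid, had also risen (0.90 ± 0.13, adjusted p = 3.2e-11). Of the 3 Tgm2 regions, 2 were higher in RA+VitC iTreg than in TGFβ iTreg. Over the whole list, 4 of 35 regions were higher (11.4%) and 2 lower (5.71%) between both iTreg groups. All rises were at Cyp26b1 and Tgm2, and Aldh1a2 and Rarg had 1 fall each. The median log2 fold change of the list was -0.15, and with plain library sizes 2 were higher and 3 lower.

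Falls in RA+VitC iTreg against naive cells were led by G6pc, Lrpprc, Gsdme, Mtif3 and Qpct (log2 fold changes of -2.03 to -1.79). G6pc encodes the catalytic subunit of glucose-6-phosphatase. Its region 4501 bp upstream (chr11:101220707-101224542) held 22.5 and 18.8 CPM in naive cells, 17.1 and 17.3 in Treg, 14.9 and 7.72 in TGFβ iTreg and 6.5 and 3.46 for RA+VitC iTreg. RA+VitC iTreg were lowest (-2.03 ± 0.22 log2 units, adjusted p = 3.8e-18). Qpct, which encodes glutaminyl cyclase, had a region 39175 bp from its TSS that fell by 1.79 log2 units (SE 0.20, adjusted p = 1.5e-17), and all 4 tested regions in its transcript were lower too. Satb1, a chromatin organiser of T cells, had 7 of 8 tested regions lower and 0 higher. Other genes went the other way: S1pr1 had 8 of 20 higher and 1 lower, and Klf2 4 of 6 higher and 0 lower. The naive T cell list had 34 regions higher (22.1%) and 36 lower (23.4%) of 154, and 26 and 61 with plain library sizes.

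RA+VitC iTreg and TGFβ iTreg, which differ by the pair of additives, differed at fewer near-TSS intergenic regions than any other pair of groups at the depths as sequenced. With libraries thinned to the shallowest that order turned, with 458 rises and 553 falls here against 665 and 293 between Treg and naive cells. In RA+VitC iTreg 1011 (3.53%) were higher and 695 (2.42%) lower, against 4.56% and 1.98% of all tested regions. Promoter regions gave 6.27% higher and 1.35% lower. The direction of the balance rests on the scaling: rises made up 59.3% of the calls here, but 33.7% with plain library sizes (578 higher, 1137 lower) and 35.1% among regions with at least 50 reads on average (359 higher, 665 lower). Leaving out 1 library gave 492 to 1002 rises and 302 to 691 falls, with the lowest values without TGFβ iTreg replicate 1 for rises and replicate 2 for falls. Without TGFβ iTreg replicate 2 there were 618 rises, without RA+VitC iTreg replicate 1 there were 563 rises and 392 falls, and without its replicate 2 there were 460 falls.

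The largest rises were at Arhgap5, Foxp1, Tspan2, Sik2 and Kansl1l, all with log2 fold changes of 1.68 to 1.91 and all past the threshold under every alternative that could be run on them. Foxp1 encodes a transcription factor that keeps naive T cells quiescent. Its region 2877 bp upstream (chr6:99473865-99476918) held 14.3 and 17.6 CPM in naive cells, 18.3 and 20.5 in Treg, 14.3 and 15.0 in TGFβ iTreg and 55.7 and 45.5 for RA+VitC iTreg. RA+VitC iTreg were highest, by 1.78 ± 0.20 log2 units over TGFβ iTreg (adjusted p = 5.4e-17), and TGFβ iTreg overlapped with naive cells. The Foxp1 transcript moved with it, with 28 of its 48 tested regions higher and 0 lower. The other near-TSS intergenic regions of Foxp1 did not: of 11 tested, 1 was higher and 0 lower (median log2 fold change 0.12). Against naive cells 4 of the 11 were higher in RA+VitC iTreg and 5 lower (median -0.84).

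Arhgap5 had a region 14564 bp upstream (chr12:53585077-53590394) with 3.71 and 4.76 CPM in naive cells, 7.27 and 7.18 in Treg, 19.5 and 12.6 in TGFβ iTreg and 65.0 and 53.3 for RA+VitC iTreg. All groups were separate, and the additives' difference was 1.91 ± 0.19 log2 units (adjusted p = 9.4e-22). None of the 8 tested regions of the Arhgap5 transcript was called at an edgeR adjusted p under 0.05, and the same was true of the 9 of Tspan2 and the 18 of Kansl1l.

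Izumo1r had 6 of 10 tested regions higher in RA+VitC iTreg than in TGFβ iTreg and 0 lower. The region 38481 bp upstream (chr9:14746877-14753921) held 20.5 and 20.1 CPM in naive cells, 21.9 and 18.8 in Treg, 16.6 and 16.9 in TGFβ iTreg and 50.3 and 39.2 for RA+VitC iTreg. RA+VitC iTreg were highest and TGFβ iTreg lowest, 1.41 ± 0.19 log2 units apart (adjusted p = 8.3e-11), and naive cells and Treg overlapped. Icos, a costimulatory receptor of Treg and follicular T cells, had a region 28354 bp upstream of its TSS and nearest to the end of Ctla4 (chr1:60998902-61006403). It held 28.2 and 24.7 CPM in naive cells, 49.3 and 45.8 in Treg, 43.6 and 43.9 in TGFβ iTreg and 87.3 and 86.4 for RA+VitC iTreg, a difference of 0.99 ± 0.14 log2 units between both iTreg groups (adjusted p = 2e-10).

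Falls with the additives were led by Ccr3, Ifng, Rab11fip2, Ep300 and Vps54 (log2 fold changes of -1.35 to -0.86). Ifng encodes interferon γ, the Th1 cytokine. Its region 17369 bp past the TSS (chr10:117895473-117899982) held 14.6 and 17.5 CPM in naive cells, 23.0 and 20.7 in Treg, 70.0 and 74.3 in TGFβ iTreg and 29.4 and 34.9 for RA+VitC iTreg. TGFβ iTreg were highest, and RA+VitC iTreg were lower than they were by 1.17 log2 units (SE 0.14, adjusted p = 2.2e-13). The regions 26832 and 39079 bp past the TSS were also highest in TGFβ iTreg, at 30.4 and 53.1 CPM and at 27.5 and 33.8, against 15.5 and 20.5 and 10.5 and 13.3 in RA+VitC iTreg. Of the 18 tested regions at Ifng, 5 were lower with the additives and 0 higher, while the 2 tested regions of its transcript were not called at an edgeR adjusted p under 0.05. Without TGFβ iTreg replicate 2 the region at 26832 bp was no longer called, with a log2 fold change of -0.76 against -1.25 with all libraries.

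Ccr3 encodes a chemokine receptor of eosinophils and some Th2 cells. The region 15775 bp from its TSS (chr9:123952479-123956207) held 5.44 and 5.75 CPM in naive cells, 7.51 and 8.2 in Treg, 62.0 and 68.6 in TGFβ iTreg and 26.6 and 24.8 for RA+VitC iTreg. All groups were separate (-1.35 ± 0.15 log2 units with the additives, adjusted p = 7.8e-16). Ep300, the gene of the p300 acetyltransferase that marks enhancers, had a region 48060 bp upstream (chr15:81363500-81368583) with 90.7 and 90.3 CPM in TGFβ iTreg, 13.7 to 14.5 over the 4 sorted libraries and 42.1 and 39.2 with the additives. It fell by 1.15 log2 units with the additives (SE 0.13, adjusted p = 9e-16), and 0 of the 17 tested regions in its transcript was called at an edgeR adjusted p under 0.05. The Th1 list had 3 regions higher (5.26%) and 8 lower (14.0%) of 57 with the additives. Over all near-TSS intergenic regions the shares were 3.53% and 2.42%. Of the 8 falls, 5 were at Ifng, 2 at Eomes and 1 at Runx3, which also held the 3 rises. With plain library sizes 0 regions of the list were higher and 12 lower. The Treg signature list had 15 higher (10.9%) and 4 lower (2.92%) of 137. Its balance rests on the settings: there were 9 higher and 8 lower with plain library sizes, 8 and 5 of 36 among regions with at least 50 reads on average, and 10 and 6 of 76 after thinning.

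**Figure D4:**
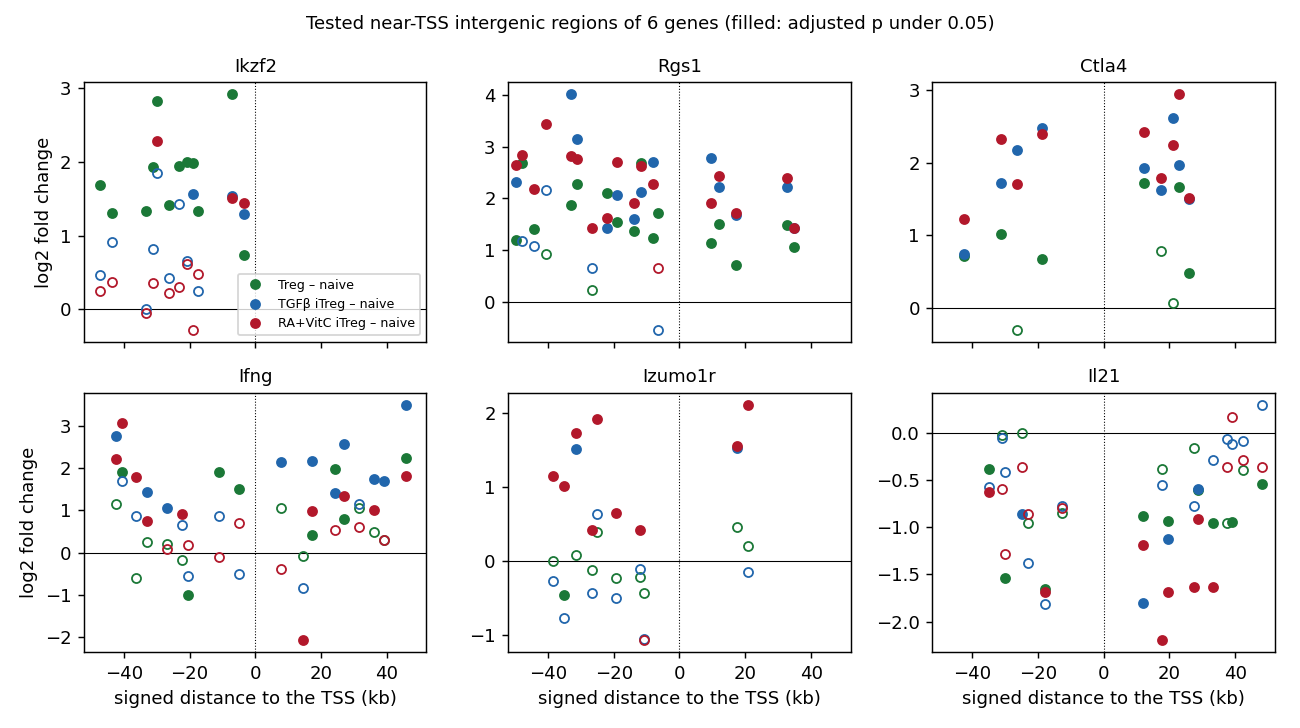
Log2 fold changes against naive cells of the tested near-TSS intergenic regions of 6 genes, by signed distance to the TSS in kb (negative, upstream); the 3 comparisons share the naive libraries, and filled points have an adjusted p under 0.05. Treg values (green) lie highest at most Ikzf2 regions, RA+VitC iTreg values (red) at most Izumo1r regions, TGFβ iTreg values (blue) at most downstream Ifng regions, and Il21 regions lie mostly below 0.

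TGFβ iTreg and Treg, compared directly, differed with more rises than falls in iTreg. Of the near-TSS intergenic regions 3573 (12.5%) were higher in TGFβ iTreg and 1089 (3.8%) lower, against 9.58% and 5.82% of all tested regions. Without TGFβ iTreg replicate 2 the counts were 2080 and 473, and without replicate 1 the falls were 514. The largest rises were at Ifitm3, Stfa3, Gpbp1, Ep300 and Prnp, with log2 fold changes of 2.60 to 4.37. Prnp, the prion protein gene, had a region 16556 bp upstream (chr2:131708757-131719107) with 109 and 117 CPM in TGFβ iTreg, 94.6 and 83.8 for RA+VitC iTreg. Treg held 18.3 and 19.1 CPM and naive cells 8.53 and 10.8. All groups were separate there, and TGFβ iTreg exceeded Treg by 2.60 ± 0.13 log2 units (adjusted p = 4.8e-92).

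The largest falls against Treg were at Traf3, Ikzf2, Ly86, Hspb7 and Prkcd (log2 fold changes of -1.41 to -1.25). The second Ikzf2 region named, 33224 bp upstream (chr1:69765759-69772439), held 25.2 and 23.6 CPM in Treg, 12.7 and 7.23 in naive cells, 8.61 and 10.6 in TGFβ iTreg and 10.5 and 8.36 for RA+VitC iTreg. Treg were highest, and naive cells and both iTreg groups overlapped. Inputs ranged from 20.3 to 41.0 CPM on a scaling of their own, and no pull-down lay above that range. TGFβ iTreg were lower than Treg by 1.33 log2 units (SE 0.23, adjusted p = 2.6e-07). Of the 12 tested Ikzf2 regions 4 were lower in TGFβ iTreg and 1 higher, and within the transcript 6 of 8 were lower and 1 higher. Traf3, a negative regulator of non-canonical NF-κB signalling, had a region 46058 bp upstream, nearest to the transcript of Rcor1 (chr12:112353196-112358700), with 35.2 and 33.3 CPM in Treg against 9.65 to 17.5 in the other 6 libraries.

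RA+VitC iTreg differed from Treg at more regions. Of the near-TSS intergenic regions 5782 (20.2%) were higher and 3038 (10.6%) lower, against 17.8% and 11.4% of all tested regions, and with plain library sizes 4645 were higher and 5143 lower. Falls numbered 1568 and 1833 without RA+VitC iTreg replicates 1 and 2. The 5 largest rises, at Rph3a, Zfp213, Pitx1, Grhpr and Cacng6, had log2 fold changes of 3.75 to 4.64. Rph3a encodes rabphilin 3A, a protein of synaptic vesicles. Its region 3477 bp upstream (chr5:121463567-121466988) held 61.3 and 42.9 CPM in RA+VitC iTreg, and 36.7 and 40.1 in TGFβ iTreg. Treg held 2.09 and 2.05 CPM and naive cells 1.36 and 0.396. Both cultured groups lay above both sorted groups at this region, RA+VitC iTreg by 4.64 ± 0.19 log2 units over Treg (adjusted p = 7.5e-125).

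The 5 largest falls were at Lbh, Lamc3, Rarg, Klrg1 and Minpp1 (log2 fold changes of -2.04 to -1.58). Rarg encodes retinoic acid receptor γ. Its region 3539 bp upstream (chr15:102091454-102096458) held 38.9 and 38.0 CPM in Treg, 14.6 and 15.2 in naive cells, 17.2 and 23.2 in TGFβ iTreg and 10.2 and 12.4 for RA+VitC iTreg. Treg were highest and RA+VitC iTreg lowest, with a difference from Treg of -1.77 ± 0.16 log2 units (adjusted p = 2.4e-25). Klrg1, a receptor of mature Treg and effector cells, had a region 8668 bp upstream (chr6:122241520-122248264) with 25.4 and 25.5 CPM in Treg, 9.15 and 10.2 in naive cells, 12.6 and 11.1 in TGFβ iTreg and 8.19 and 8.36 for RA+VitC iTreg. Treg were highest and RA+VitC iTreg lowest there, and all 4 tested regions in the Klrg1 transcript were lower in RA+VitC iTreg. Inputs ranged from 21.0 to 25.8 CPM, so the Treg pull-downs lay within that range and the others below it.

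At Ikzf2, 9 of 12 tested regions were lower in RA+VitC iTreg than in Treg and 1 higher. Rel, an NF-κB subunit needed for Treg development, had 7 of 10 lower and 0 higher, and Tet2, a TET dioxygenase, 4 of 13 lower and 0 higher. The Tet2 region 36428 bp upstream (chr3:133243783-133246974) held 3.83 and 3.47 CPM in naive cells, 11.8 and 14.7 in Treg, 15.5 and 29.0 in TGFβ iTreg and 15.0 and 18.4 for RA+VitC iTreg. Naive cells were lowest, by 1.87 ± 0.20 log2 units against Treg (adjusted p = 4.5e-19). Over the DNA methylation machinery list 6 regions were higher (9.23%) and 13 lower (20.0%) of 65 in RA+VitC iTreg than in Treg, against 20.2% and 10.6% of all near-TSS intergenic regions. The counts were 3 and 5 with the replicate block, 1 and 3 with DESeq2, and 1 and 3 of 28 after thinning. In Treg against naive cells 15 were higher (23.1%), 9 of them at Tet2, and 2 lower (3.08%), against 14.4% and 9.55%, and DESeq2 called 6 and 0.

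The share of regions called rose somewhat with distance from the TSS. In RA+VitC iTreg against naive cells, rises made up 24.5% of tested regions within 5 kb and 26.6% at 40 to 50 kb, and falls 13.0% and 17.5%. In TGFβ iTreg against naive cells rises went from 15.8% to 18.8%. Just inside the distance limit, at 45 to 50 kb, 25.8% of regions were higher in RA+VitC iTreg than in naive cells and 17.1% higher in Treg. Just outside it, at 50 to 55 kb, the values were 24.0% and 13.1%. Over all distances up to the limit, 26.5% of upstream regions were higher in RA+VitC iTreg than in naive cells. The values were 24.8% for downstream regions and 24.1% for regions closest to another gene's start.

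**Figure D5:**
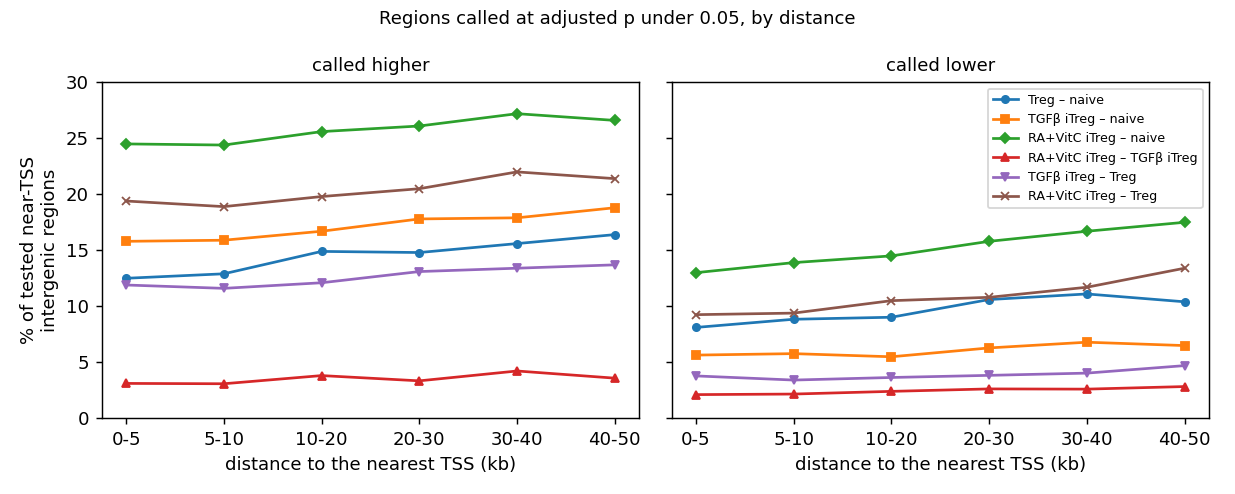
Percent of tested near-TSS intergenic regions called higher (left) and lower (right) at an adjusted p under 0.05 by distance to the nearest TSS in kb, for the 6 comparisons. Most lines rise by a few points with distance; in RA+VitC iTreg against naive cells rises lie at 24.5% within 5 kb and 26.6% at 40 to 50 kb.

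Regions beside a gene and regions within its transcript were related only in part. For 6380 genes with tested regions of both kinds, the mean log2 fold change of the near-TSS intergenic regions was set against that of the transcript. Pearson's r across genes was 0.346 for RA+VitC iTreg against naive cells, 0.33 for Treg against naive cells, 0.253 for TGFβ iTreg against naive cells and 0.176 between both iTreg groups. Genes are not independent replicates, both values come from the same libraries, and depth limits r. In TGFβ iTreg against naive cells, 623 genes had regions called higher both beside and within the gene, none of them called lower. Another 260 had regions called only higher beside the gene and only lower within it, and 83 the reverse. At 233 genes both were called only lower. Beside the gene, 1815 of the 6380 genes had only rises and 649 only falls. The number of transcripts called each way is not given, so these overlaps cannot be set against what separate calls would give.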

How the data were processed

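5hmC was measured by CMS-IP in 8 pull-down and 8 input libraries of 4 groups of CD4 T cells. The authors deposited 1 table of raw counts of reads per region, over the union of broad MACS2 peaks, per the file headers annotated on mm9. MACS2 2.1.0.20151222, SAMtools 1.7, Trim Galore 0.4.2 and bcl2fastq 2.20.0.442 are named in the submitters' processing notes. Aligner, counter and any pooling for peak calling: not given in the sources used here. The distances to transcripts and to start sites were used as deposited. Spike-in amplicons were not used here, so counts are relative within a library.

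Counts of the 8 pull-downs were fitted together in edgeR 4.0.16 (R 4.3.3) using TMM factors, a filterByExpr threshold of 10 counts and its quasi-likelihood test. P-values were adjusted by Benjamini-Hochberg over all 135412 tested regions, with a threshold of 0.05. Standard errors are the log2 fold change divided by the square root of F. Pull-down CPM use TMM-scaled and input CPM plain library sizes. The script was tested on simulated data. Shares were compared by exact two-sided permutation over the 4 groups.

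Named regions have a mean of at least 100 reads in the libraries compared, an adjusted p under 0.05, groups that do not overlap, a gene symbol that is no clone name and a chromosome other than one left out. The 5 highest and 5 lowest log2 fold changes of each comparison were taken, and for gene lists up to 4 regions with at least 50 reads. The members and lists were chosen with earlier results of these data known. Alternatives used DESeq2 1.42.0, other scalings, filters and depths, a replicate block and each library left out. A marker gene of the lists is not reported here.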

Additional observations from a re-analysis of the deposited data

How the results depend on the processing

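Depth limits the comparisons with TGFβ iTreg most. Among alternatives for the main counts and shares, 60 values moved beyond the limit set for them and 140 did not. Of 296 results for named regions none changed sign, and 38 lost their call with DESeq2, 46 after thinning, 10 with plain library sizes and 13 with the replicate block. The share of reads in TGFβ iTreg minus that in naive cells stayed between 2.02 and 2.682 percentage points under its alternatives. The near-to-far log2 ratio of RA+VitC iTreg minus naive cells lay between 0.105 and 0.126, and its alternatives were chosen after seeing the data. With DESeq2, Treg against naive cells gave 1365 rises and 399 falls, TGFβ iTreg against naive cells 475 falls, RA+VitC iTreg against naive cells 1494 falls, RA+VitC against TGFβ iTreg 479 and 295, TGFβ iTreg against Treg 233 falls, and RA+VitC iTreg against Treg 3787 and 825. DESeq2 gave no adjusted p for 5212 regions in the first and 20393 in the fourth of these comparisons. Among the regions with a mean of at least 50 reads, far fewer of which were tested, the rises and falls in the same order of comparisons were 975 and 766, 1415 and 550, 1565 and 1070, 359 rises, 1306 and 414, and 1430 and 959. With libraries thinned to the shallowest they were 665 and 293, 2538 and 777, 2610 and 1282, 458 rises and 553 falls, 2082 and 538, and 2056 and 921. Plain library sizes gave 6455 falls against naive cells in RA+VitC iTreg, 578 rises and 1137 falls against TGFβ iTreg, and 5143 falls against Treg. The cause of these changes was not tested, beyond the fewer regions tested or the fewer reads.

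With the replicate block, falls against naive cells were 1031 (TGFβ iTreg) and 2812 (RA+VitC iTreg), and falls against Treg 659 and 1844 in that order. Titles of both iTreg groups share 2 suffixes whose meaning they do not give, and those of the sorted groups share the numbers 1 and 2. The block had a term for each, so no sorted library was joined to an iTreg library. Replicate differences correlated at r = -0.00516 between both iTreg groups and 0.00849 between the sorted groups. Replicates differed by little more than counting noise, with a chi-squared per degree of freedom of 1.07 in naive cells and 1.2 in RA+VitC iTreg. A correlation near 0 therefore cannot tell whether the samples were paired. The main fit did not pair them.

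Leaving out 1 library gave 2523 to 4211 rises and 1382 to 2847 falls for Treg against naive cells, 2997 to 4873 and 841 to 1701 for TGFβ iTreg against naive cells, and 5728 to 7404 and 2566 to 4405 for RA+VitC iTreg against naive cells. It gave 492 to 1002 and 302 to 691 for RA+VitC against TGFβ iTreg, 2080 to 3557 and 473 to 1080 for TGFβ iTreg against Treg, and 4188 to 5851 and 1568 to 3121 for RA+VitC iTreg against Treg.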
